A study of Mus musculus with 9 samples.

Results

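The 36 genes described here are used to recognise macrophages and other leukocytes in mouse tissue. They were taken from the 54532 genes of the deposited table by their symbols, matched through Ensembl identifiers to GENCODE M21, and all 36 had a read in at least 1 library. They were measured in cells of developing mouse knees at stage E14.5, sorted by flow cytometry into 3 populations. Every embryo had the genotype Creb53XHA-P2A-tdTomato/+; Sox9iresEGFP/+, so that cells using Creb5, a bZIP transcription factor gene of the forming joint, carried red fluorescence (RFP) and cells using Sox9, the chondrocyte transcription factor gene, carried green fluorescence (GFP). The populations had green fluorescence alone (GFP-only), both colors (double-positive) or red fluorescence alone (RFP-only). Each was sequenced as polyadenylated RNA in 3 libraries, 1 from each of the litters numbered 1, 2 and 5, which were collected on separate days, and the labels give about 250K to 500K cells per sample. The labels do not say how many embryos of a litter were combined, and they name no step that removed blood cells before or during the sort. The study's title concerns Creb5 and the gene program of the joint interzone, and the comparisons here ask how far macrophage and leukocyte RNA followed the reporters.

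Macrophages of the embryo seed tissues early, largely from yolk sac and fetal liver progenitors, and clear dying cells as limbs and joints take shape. They depend on the receptor Csf1r, which binds the growth factors Csf1 and Il34, and on the transcription factor PU.1, the product of Spi1. Their RNA is rich in complement C1q, Fc receptor adaptors, lysosomal enzymes and scavenger receptors, while Ptprc (CD45) and the beta-2 integrins are shared by leukocytes in general.

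Of the 36 genes, 23 rose in double-positive against GFP-only cells, none fell, 11 did not pass the test and 2 (Ccr2 and Cd163) were too low to be tested. Of all genes tested in that comparison, 5.27% were called higher and 3.02% lower (8.29% in either direction). In RFP-only against GFP-only cells 15 rose, none fell and 19 did not pass, where 11.8% of all genes tested were called higher and 8.48% lower (20.3% in either direction). Between double-positive and RFP-only cells none of the 36 passed, where 1.8% of all genes were called higher and 1.05% lower (2.85% in either direction). On reads recovered from the table, edgeR called 23 and DESeq2 30 of the 36 higher in double-positive cells, and 14 and 20 in RFP-only cells, each against GFP-only cells. Unless another tool is named, a call is an adjusted p under 0.05 in limma, and values are deposited normalized counts, given for litters 1, 2 and 5 in that order unless stated otherwise. A single library is named by its population and litter, as in double-positive litter 5. Log2 fold changes are on the scale of log2(normalized count + 1) and carry their standard error.

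Read totals recovered from the table lay between 25199258 and 47079305 per library. The host genes of the reporters followed the sort in every litter: Creb5 had 196, 138 and 274 normalized counts in GFP-only cells against at least 2006 in each library of the other populations, and Sox9 had at most 1891 in an RFP-only library against at least 16565 elsewhere. The 36 genes together made up between 0.00567% and 0.119% of a library's reads. In bulk RNA, fewer cells of a type and less RNA per cell cannot be told apart.

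**Figure D1:**
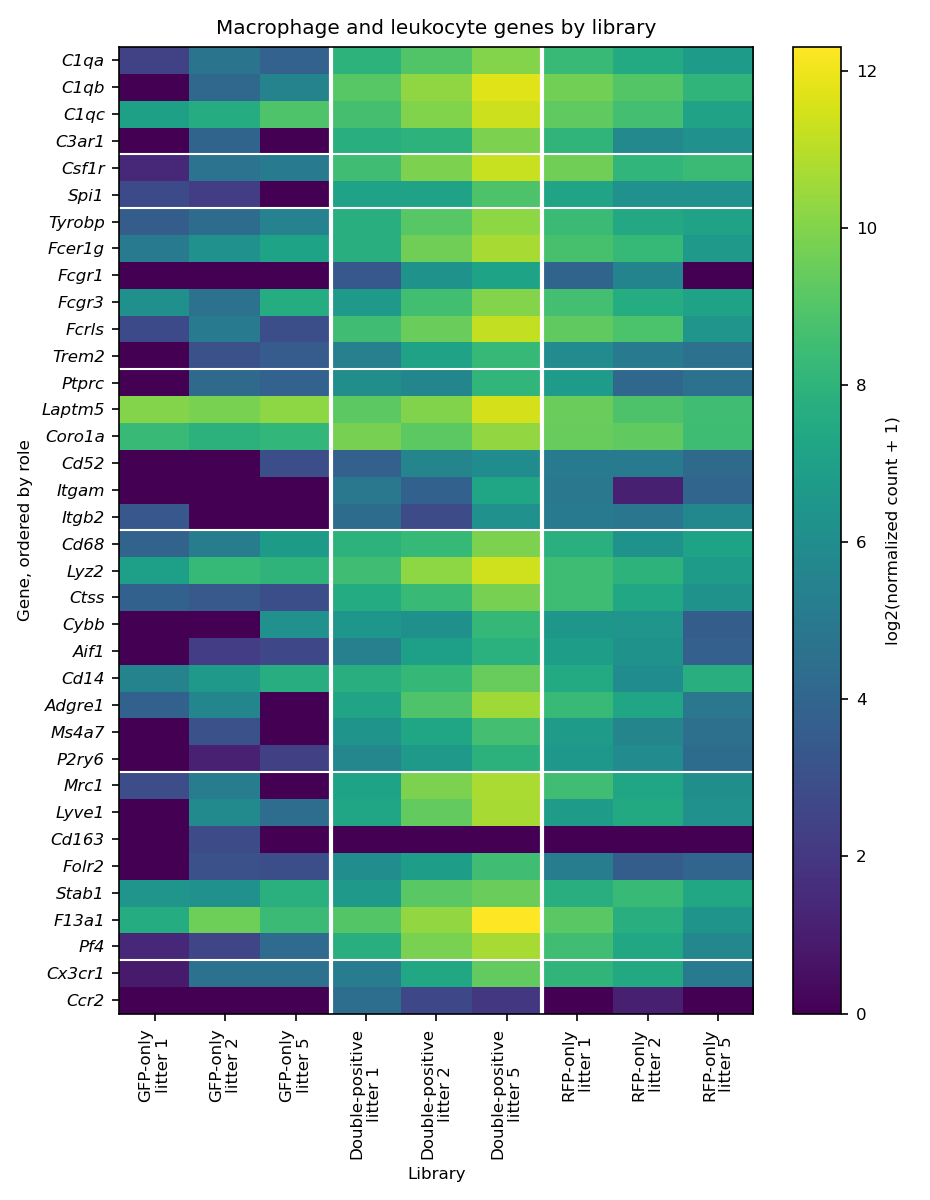
Level of each of the 36 genes (rows, grouped by role) in each of the 9 libraries (columns), as log2(normalized count + 1). Most rows are dark in the 3 GFP-only columns and brightest in double-positive litter 5, where 34 of the 36 genes had their highest double-positive value, while Laptm5 is bright in all 9 columns.

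Csf1r and Spi1, the growth factor receptor and the lineage factor, both rose in both populations with red fluorescence. Csf1r (ENSMUSG00000024621, plus strand of chromosome 18, 61100598 to 61132149, GRCm38) had 1.65, 24.5 and 31.2 normalized counts in GFP-only cells. It had 368, 949.6 and 2514 in double-positive cells and 798, 277 and 339 in RFP-only cells. The GFP-only libraries were the 3 lowest of the 9, and the populations with red fluorescence overlapped each other. The log2 fold change was 6.21 ± 0.93 in double-positive (adjusted p = 0.00299) and 5.03 ± 0.93 in RFP-only cells (adjusted p = 0.00327), both against GFP-only cells. Spi1 (ENSMUSG00000002111, plus strand of chromosome 2, 91082390 to 91115756) had 5.79, 3.67 and 0 in GFP-only, 136, 136 and 467 in double-positive and 144, 73.6 and 74.2 in RFP-only cells. Every library outside GFP-only cells was above every library within them, and the fold changes were 6.03 ± 0.79 (adjusted p = 0.00166) and 4.88 ± 0.79 (adjusted p = 0.00151). For both genes these calls held without any 1 library, but the double-positive call of Csf1r ended without litter 2 (adjusted p = 0.0515). Csf1r overlaps Hmgxb3, annotated on the opposite strand, and a strand setting for the counting was not given in the sources used here.

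Of the 4 complement genes, 3 rose in both comparisons with GFP-only cells. C1qa, C1qb and C1qc encode the chains of C1q, the first component of the classical pathway, and lie next to each other on chromosome 4. C1qa had 4.13, 25.7 and 13.6 in GFP-only, 247, 506 and 1051 in double-positive and 316, 180.1 and 109 in RFP-only cells, with fold changes of 5.34 ± 0.70 (adjusted p = 0.00161) and 3.88 ± 0.70 (adjusted p = 0.00284). C1qb had 0, 17.1 and 44.8 in GFP-only, 549, 1246 and 3291 in double-positive and 816, 511 and 262 in RFP-only cells, with fold changes of 7.12 ± 1.16 (adjusted p = 0.00452) and 5.67 ± 1.16 (adjusted p = 0.00584). C1qc stood apart from its neighbors in the GFP-only libraries, where it had 127, 196 and 476. Its values of 403, 992 and 2637 in double-positive and 625, 399.7 and 136 in RFP-only cells overlapped the GFP-only range, and neither comparison passed (2.15 ± 0.73, adjusted p = 0.0958, and 0.50 ± 0.73, adjusted p = 0.659). The first passed with DESeq2 and, in limma, without litter 5 (adjusted p 0.00836 to 0.0444). Per kilobase of exon, C1qc held 11.1% of the summed level of the 36 genes in GFP-only cells, against 1.18% for C1qa and 1.32% for C1qb. C3ar1, the receptor of the complement fragment C3a, was listed at 0 in 2 of the 3 GFP-only libraries and rose in both populations (7.21 ± 1.08, adjusted p = 0.00292, and 5.37 ± 1.08, adjusted p = 0.00517).

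Among 6 genes of Fc receptors, their signaling adaptors and Trem2, 5 rose in double-positive and 2 in RFP-only against GFP-only cells. Tyrobp, the DAP12 adaptor that carries signals of Trem2 and related receptors, had 11.6, 19.6 and 43.4 in GFP-only, 210.4, 543 and 1181 in double-positive and 329.8, 173 and 134 in RFP-only cells. No GFP-only library reached any of the other 6, and the fold changes were 4.51 ± 0.66 (adjusted p = 0.00268) and 3.14 ± 0.66 (adjusted p = 0.00682). Fcer1g, the gamma chain shared by Fc receptors, had 33.9, 74.7 and 141 in GFP-only, 209, 792 and 1644 in double-positive and 429, 305 and 101 in RFP-only cells. It rose in double-positive cells (3.17 ± 0.78, adjusted p = 0.0306), a call that ended without GFP-only litter 1 or 2 or double-positive litter 2 or 5 (adjusted p 0.0571 to 0.11), and the RFP-only range overlapped that of GFP-only cells (1.72 ± 0.78, adjusted p = 0.144). The double-positive call also ended without the whole of litter 2, without the mean-variance trend and in a fit of the 2 compared populations alone. Fcrls, an Fc receptor-like scavenger gene known from microglia, rose in both (6.15 ± 0.88, adjusted p = 0.00241, and 4.60 ± 0.88, adjusted p = 0.00409). Trem2, a lipid and debris receptor, rose in double-positive cells (4.68 ± 1.01, adjusted p = 0.0172; 0.068 to 0.0735 without double-positive litter 2 or 5). The Trem2 call also ended without the whole of litter 2 or 5 and in a fit of the 2 compared populations alone. In RFP-only cells its difference of 3.03 ± 1.01 did not pass (adjusted p = 0.0556). It passed without GFP-only litter 5 (0.0339), with litter as a block (adjusted p = 0.0489) and with DESeq2 (adjusted p = 0.025). Fcgr1, the high-affinity IgG receptor, had no read in any GFP-only library and was at least 74.7-fold higher in double-positive cells, against a floor of 3 reads over the GFP-only group. That call (adjusted p = 0.0354) ended without GFP-only litter 1, 2 or 5 or double-positive litter 2 or 5 or RFP-only litter 1 (adjusted p 0.0558 to 0.131). It also ended without the whole of litter 1, 2 or 5 and without the mean-variance trend. Over the RFP-only group Fcgr1 was at least 19.0-fold higher against the same floor, which did not pass (adjusted p = 0.142). All of its RFP-only reads were in litters 1 and 2, and RFP-only litter 5 had no read, like the GFP-only libraries. The RFP-only difference passed without RFP-only litter 5 (0.029) and with DESeq2. Fcgr3, a low-affinity IgG receptor, passed in neither comparison (2.29 ± 0.88, adjusted p = 0.133, and 1.66 ± 0.88, adjusted p = 0.203), though the first passed with DESeq2 (adjusted p = 0.0252).

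Of 6 general leukocyte genes, 3 rose in double-positive and 2 in RFP-only cells, and Laptm5 had its lowest mean in RFP-only cells. Ptprc, which encodes CD45, had 0, 18.4 and 13.6 in GFP-only, 67.3, 49.1 and 277 in double-positive and 109, 17.0 and 23.8 in RFP-only cells. Its double-positive libraries were all above the GFP-only ones, but the difference of 3.91 ± 1.17 did not pass (adjusted p = 0.0635). It passed without GFP-only litter 2 (0.045), with a pseudocount of 5 (adjusted p = 0.046) and with DESeq2 (adjusted p = 0.0123). Itgam, the CD11b integrin of myeloid cells, had no read in GFP-only cells, 29.8, 13.3 and 153 in double-positive and 29.7, 1.13 and 15.4 in RFP-only cells. It was at least 63.4-fold and at least 16.1-fold higher, against the floor of 3 reads over the GFP-only group. The first passed (adjusted p = 0.0218), though not without double-positive litter 1 or 5 (adjusted p 0.0589 to 0.0888), and the second did not (adjusted p = 0.0732). The second passed without RFP-only litter 2 (0.028), with edgeR (adjusted p = 0.0441) and with DESeq2 (adjusted p = 0.0029). Itgb2, its beta chain, was the 1 gene called in RFP-only but not in double-positive cells (4.12 ± 1.12, adjusted p = 0.0244, and 3.37 ± 1.12, adjusted p = 0.0902). The RFP-only call ended without GFP-only litter 2 or 5 or RFP-only litter 1, 2 or 5 (adjusted p 0.0567 to 0.0935), and it also ended with edgeR. The double-positive one was made without GFP-only litter 1 (0.0301). Between these populations Itgb2 differed by -0.75 ± 1.12 (95% interval -3.22 to 1.72, adjusted p = 0.926).

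The actin-binding protein gene Coro1a was present throughout, at 318, 236 and 278 in GFP-only, 889, 582 and 1269.6 in double-positive and 688, 622 and 361 in RFP-only cells. It rose by 1.65 ± 0.35 in double-positive cells (adjusted p = 0.0161; 0.0552 to 0.0601 without double-positive litter 1 or 5) and missed the threshold in RFP-only cells (0.96 ± 0.35, adjusted p = 0.0764). The RFP-only difference passed with DESeq2 and, in limma, without litter 5 (adjusted p 0.0292 to 0.0304). Coro1a overlaps Bola2 on the other strand. Cd52, a small surface glycoprotein gene of leukocytes, was low everywhere, with at most 62.1 normalized counts. It rose in both populations (4.12 ± 0.99, adjusted p = 0.028, and 3.78 ± 0.99, adjusted p = 0.0203). The first call ended without GFP-only litter 1 or 2 or double-positive litter 2 or 5 or RFP-only litter 1 (adjusted p 0.0506 to 0.109) and the second without GFP-only litter 1 or RFP-only litter 1 or 2 (adjusted p 0.0502 to 0.0752). Both calls also ended with edgeR. The first ended as well with quantile scaling, without the filter on the mean and in a fit of the 2 compared populations alone.

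Laptm5 (ENSMUSG00000028581, plus strand of chromosome 4, 130913125 to 130936141), a lysosomal membrane protein gene of blood cells, had 1052, 912 and 1203 normalized counts in GFP-only cells. It had 580.3, 1011 and 2907 in double-positive and 715, 470.0 and 375 in RFP-only cells. All 3 RFP-only libraries were below all GFP-only ones, as were 18.5% of all genes tested. The RFP-only difference of -1.06 ± 0.49 did not pass (adjusted p = 0.147), though it did without double-positive litter 5 (adjusted p = 0.0445). In double-positive against GFP-only cells the difference was 0.19 ± 0.49 (adjusted p = 0.841), and -0.45 without double-positive litter 5. Per kilobase of exon it held 26.1% of the summed level of the 36 genes in GFP-only cells, the largest mean share there.

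PU.1, the product of Spi1, recognises a purine-rich core that can be written GAGGAA, and the promoters of the 36 genes were searched for it on both strands. RefSeq promoter sequences (GRCm38.p6), from 250 bases before to 50 bases after the start, were found for 26 of the 36 genes. GAGGAA lay in 18 of them (69.2%), against 30.5% of tested genes with a promoter sequence and 31.3% of all. The longer GAGGAAG, which contains it, lay in 11 (42.3%, against 15.9% and 15.4%). A match is a description of the letters and not a bound site. The promoters of 4 genes are printed 5′ to 3′ on the strand of the gene with GAGGAA, or TTCCTC where it lies on the opposite strand, in capitals. C1qb (chr4:136886151-136886450, minus strand) and Pf4 (chr5:90772185-90772484, plus strand) were nearly silent in GFP-only cells, whereas C1qc (chr4:136892865-136893164, minus strand) and Laptm5 (chr4:130913066-130913365, plus strand) were not. They were chosen after their values were seen.
C1qb: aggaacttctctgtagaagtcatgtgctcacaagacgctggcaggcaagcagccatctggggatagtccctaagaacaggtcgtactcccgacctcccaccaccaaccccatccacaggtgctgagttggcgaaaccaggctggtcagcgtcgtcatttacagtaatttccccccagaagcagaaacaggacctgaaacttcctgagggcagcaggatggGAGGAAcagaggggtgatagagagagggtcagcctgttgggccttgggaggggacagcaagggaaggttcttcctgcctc
Pf4: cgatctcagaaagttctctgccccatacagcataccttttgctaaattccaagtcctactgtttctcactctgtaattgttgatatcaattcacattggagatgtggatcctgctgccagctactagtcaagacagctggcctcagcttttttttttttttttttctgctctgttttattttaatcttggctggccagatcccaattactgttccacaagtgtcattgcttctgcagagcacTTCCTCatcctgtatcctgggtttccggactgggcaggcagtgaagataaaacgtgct
C1qc: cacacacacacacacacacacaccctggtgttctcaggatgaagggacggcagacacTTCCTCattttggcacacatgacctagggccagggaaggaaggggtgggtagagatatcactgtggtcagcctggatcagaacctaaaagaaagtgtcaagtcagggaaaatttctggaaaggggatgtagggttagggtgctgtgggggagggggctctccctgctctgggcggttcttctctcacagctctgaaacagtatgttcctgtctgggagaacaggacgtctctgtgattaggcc
Laptm5: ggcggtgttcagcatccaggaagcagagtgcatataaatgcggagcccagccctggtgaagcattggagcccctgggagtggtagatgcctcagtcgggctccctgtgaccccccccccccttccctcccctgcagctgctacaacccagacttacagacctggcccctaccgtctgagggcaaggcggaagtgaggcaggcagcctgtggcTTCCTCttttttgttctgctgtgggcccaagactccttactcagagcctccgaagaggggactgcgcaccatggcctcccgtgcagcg
The first base of the motif was 30 bases before the start in C1qb, 8 in Pf4, 193 in C1qc and 38 in Laptm5. Each of these 4 promoters holds it once; they were picked from the genes that hold it.

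**Figure D2:**
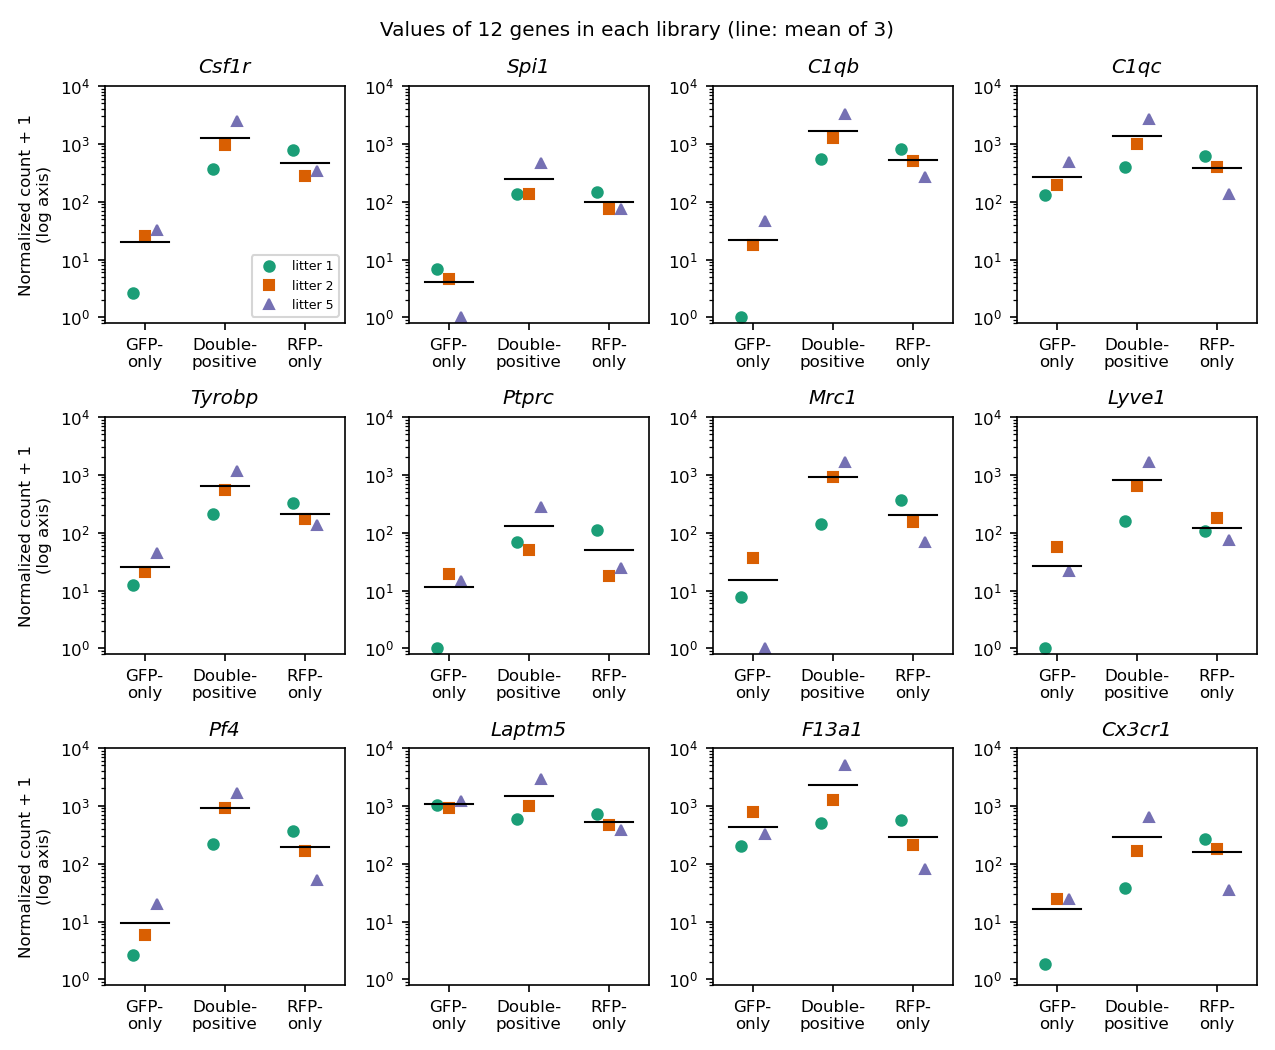
Normalized count plus 1 of 12 genes in each library (log axis), by population, with litters 1, 2 and 5 as separate symbols and the mean of 3 as a line. For Csf1r, Spi1, C1qb, Tyrobp and Pf4 all 3 GFP-only points lie below all others, whereas for C1qc and F13a1 they overlap the RFP-only points and for Laptm5 they lie above them.

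Of 9 genes for phagocyte enzymes, lysosome and surface proteins, 6 rose in double-positive and 4 in RFP-only against GFP-only cells. Cd68, a lysosomal glycoprotein gene of macrophages, had 14.1, 35.5 and 104 in GFP-only, 246, 302 and 955 in double-positive and 225, 77.0 and 141 in RFP-only cells. Its double-positive libraries were above all others, and it rose against GFP-only cells (3.42 ± 0.74, adjusted p = 0.017; 0.0629 without double-positive litter 5). In RFP-only cells its difference was 1.81 ± 0.74 (adjusted p = 0.106; 0.0257 without GFP-only litter 5). Adgre1, the F4/80 macrophage antigen, had 13.2, 49.0 and 0 in GFP-only, 147, 481 and 1498 in double-positive and 324, 151 and 28.0 in RFP-only cells. It spanned a wide range within each population, and its rise in double-positive cells (5.73 ± 1.36, adjusted p = 0.0259) ended without double-positive litter 2 or 5 (adjusted p 0.0901 to 0.0906). The Adgre1 call also ended without the whole of litter 1 or 2, without the mean-variance trend and in a fit of the 2 compared populations alone. The RFP-only difference was 3.66 ± 1.36 (adjusted p = 0.0801; 0.0259 without GFP-only litter 2).

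The protease gene Ctss (cathepsin S), the surface gene Ms4a7 and the nucleotide receptor gene P2ry6 rose in both populations, and these calls held without any 1 library. Their log2 fold changes in double-positive cells were 5.14 ± 0.66 (adjusted p = 0.00156), 6.40 ± 0.98 (adjusted p = 0.00324) and 5.58 ± 0.87 (adjusted p = 0.00371). In RFP-only cells they were 3.98 ± 0.66 (adjusted p = 0.00178), 4.62 ± 0.98 (adjusted p = 0.00682) and 4.46 ± 0.87 (adjusted p = 0.00461). The RFP-only call of Ms4a7 ended without litter 1 (adjusted p = 0.095). For P2ry6 the double-positive call ended without litter 2 (adjusted p = 0.0756) and the RFP-only call without litter 1 or 2 (0.0673 to 0.0678). Aif1, which encodes the calcium-binding protein IBA1, rose in both as well (5.10 ± 1.02, adjusted p = 0.0122, and 3.99 ± 1.02, adjusted p = 0.0179). Its first call ended without double-positive litter 2 (adjusted p = 0.055) and its second without RFP-only litter 1 or 2 (adjusted p 0.0672 to 0.0842).

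Lyz2 (lysozyme), Cd14 (the endotoxin co-receptor) and Cybb (the NADPH oxidase heavy chain) passed in neither comparison. Lyz2 was already at 122, 299 and 254 in GFP-only cells, against 364, 1169 and 2707 in double-positive and 361, 247 and 111 in RFP-only cells. The double-positive libraries were above all others, but the difference of 2.31 ± 0.67 missed the threshold (adjusted p = 0.0586). It passed without double-positive litter 1 (0.0184) and with both count tests on recovered reads (adjusted p = 0.0411 with edgeR and 0.000563 with DESeq2). In RFP-only cells the difference was 0.03 ± 0.67 (adjusted p = 0.982), with a sign that turned without GFP-only litter 1 or RFP-only litter 1 or 2 (-0.36 to -0.07). Cd14 had 44.6, 95.5 and 205 in GFP-only cells and differed by 1.88 ± 0.65 (adjusted p = 0.103) in double-positive and 0.47 ± 0.65 (adjusted p = 0.645) in RFP-only cells. The first passed without GFP-only litter 5 (0.0472), with litter as a block (adjusted p = 0.0481) and with DESeq2 (adjusted p = 0.0397). The second was -0.07 without GFP-only litter 1. Cybb was listed at 0 in 2 GFP-only libraries and at 74.6 in that of litter 5. Its differences of 4.86 ± 1.51 (adjusted p = 0.0722) and 3.43 ± 1.51 (adjusted p = 0.132) passed without that library (6.94, adjusted p = 0.00349, and 5.51, adjusted p = 0.00395).

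Among 7 scavenger and tissue-resident macrophage genes, 4 rose in double-positive and 2 in RFP-only cells, and Cd163 was at the limit of detection. Mrc1, the mannose receptor, had 6.61, 35.5 and 0 in GFP-only, 141, 934 and 1686 in double-positive and 370.2, 154 and 68.6 in RFP-only cells. It rose in both (6.54 ± 1.24, adjusted p = 0.00946, and 4.61 ± 1.24, adjusted p = 0.0226), the latter not without GFP-only litter 5 or RFP-only litter 1 or 2 (adjusted p 0.0591 to 0.0908). The latter call also ended without the whole of litter 1 and without the mean-variance trend. Lyve1, a hyaluronan receptor of resident macrophages and of lymphatic endothelium, had 0, 56.3 and 20.4 in GFP-only, 157, 648 and 1673 in double-positive and 107, 177 and 72.8 in RFP-only cells. All GFP-only libraries were below all others. Lyve1 rose in double-positive cells (5.70 ± 1.28, adjusted p = 0.0208; 0.0748 to 0.0808 without double-positive litter 2 or 5). That call also ended without the whole of litter 2 or 5, without the mean-variance trend and in a fit of the 2 compared populations alone. In RFP-only cells 3.39 ± 1.28 missed the threshold (adjusted p = 0.0844), and passed without GFP-only litter 2 (0.0248) and with litter as a block (adjusted p = 0.0388).

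Pf4, a chemokine gene of platelets that resident macrophages also use, rose in both populations, from 1.65, 4.90 and 19.0 in GFP-only cells to 215, 909.8 and 1656 in double-positive and 372, 168 and 50.4 in RFP-only cells (6.66 ± 0.95, adjusted p = 0.00234, and 4.44 ± 0.95, adjusted p = 0.00727). Folr2, a folate receptor gene of resident macrophages, rose in double-positive cells (5.14 ± 0.97, adjusted p = 0.00932), while 2.27 ± 0.97 in RFP-only cells did not pass (adjusted p = 0.122). F13a1, the coagulation factor XIII A chain, had 198, 782 and 331 in GFP-only, 507, 1266 and 5063 in double-positive and 572, 206 and 81.2 in RFP-only cells. The 3 ranges overlapped, and the differences of 1.99 ± 0.86 (adjusted p = 0.179) and -0.80 ± 0.86 (adjusted p = 0.538) had opposite signs. Stab1, a scavenger receptor gene shared with endothelium, passed in neither (1.60 ± 0.71, adjusted p = 0.189, and 0.99 ± 0.71, adjusted p = 0.345). The first passed without double-positive litter 1 (0.0253) and with DESeq2 (adjusted p = 0.0364). It overlaps Nt5dc2, a gene with 185418 reads in all, on the other strand. Cd163, the hemoglobin scavenger receptor of mature macrophages, was seen in a single library, the GFP-only one of litter 2, at 6.12.

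The chemokine receptors differed from each other. Cx3cr1, the fractalkine receptor of resident macrophages, had 0.827, 23.3 and 23.1 in GFP-only, 36.5, 164 and 651 in double-positive and 262, 178 and 33.6 in RFP-only cells. Neither comparison passed (3.96 ± 1.23, adjusted p = 0.0719, and 3.53 ± 1.23, adjusted p = 0.0653), although both ranges lay above that of GFP-only cells and DESeq2 called both (adjusted p = 0.00113 and 0.0083). Other annotated genes overlap Cx3cr1, among them Gorasp1 on its own strand. Ccr2, the receptor that recruits monocytes, had no read in GFP-only cells, 21.1, 5.46 and 2.99 in double-positive and 0, 1.13 and 0 in RFP-only cells. Over the group it was at least 8.30-fold higher in double-positive cells, against the floor of 3 reads. It was the 1 gene of the 36 with its highest double-positive value in litter 1.

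Between double-positive and RFP-only cells limma called none of the 36 genes. At an unadjusted p under 0.05 there were 6 (C1qc, Laptm5, Lyz2, Folr2, F13a1 and Pf4), all higher in double-positive cells, against 13.3% of all genes tested. On the recovered reads edgeR called none and DESeq2 called 3 (Lyz2, Folr2 and Laptm5, adjusted p 0.00169, 0.0112 and 0.0414). In limma their differences were 2.28 ± 0.67 (95% interval 0.80 to 3.77), 2.88 ± 0.97 (0.75 to 5.00) and 1.25 ± 0.49 (0.18 to 2.32). Without double-positive litter 1, Lyz2 passed in limma too (3.05, adjusted p = 0.0394). In 5 of the 36 genes (Cd68, Lyz2, Cd14, Folr2 and Ccr2) every double-positive library was above every RFP-only one, as in 11.2% of all genes tested. For Csf1r the difference was 1.18 ± 0.93 with a 95% interval of -0.86 to 3.22. Over the 34 genes tested the median difference was 1.45, against -0.01 over all genes. The corresponding medians against GFP-only cells were 4.98 in double-positive and 3.41 in RFP-only cells, where all genes had 0.04 and 0.05. With Fcgr1 and Itgam at their bounds the RFP-only median was 3.59 and the double-positive one was again 4.98.

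The order of double-positive and RFP-only cells depended on the litter. In litter 1 the double-positive library was below the RFP-only one for 27 of the 36 genes and above it for 8. In litter 2 it was above for 31 and below for 4, and in litter 5 above for 35 and below for none. Of all genes tested 50.2%, 47.8% and 48.1% were above in litters 1, 2 and 5. The median log2 ratio over the genes tested moved from -0.62 through 1.43 to 3.63 in the same order. The populations moved in opposite directions: 34 of the 36 genes had their highest double-positive value in litter 5, and 28 had their highest RFP-only value in litter 1. Of all genes tested 34.3% and 27.3% had their highest value there. The lowest double-positive value was in litter 1 for 28 genes and the lowest RFP-only value in litter 5 for 25, where 30.4% and 34.9% of all genes had theirs. Between litters 5 and 1 the double-positive level differed by a median of 5.82-fold, from 0.141 (Ccr2) to 17.8 (Cx3cr1). Between litters 1 and 5 the RFP-only level differed by a median of 3.12-fold, up to 11.6 for Adgre1. With 1 library per population and litter, this order has no replicate check, and litter and collection day cannot be told apart.

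**Figure D3:**
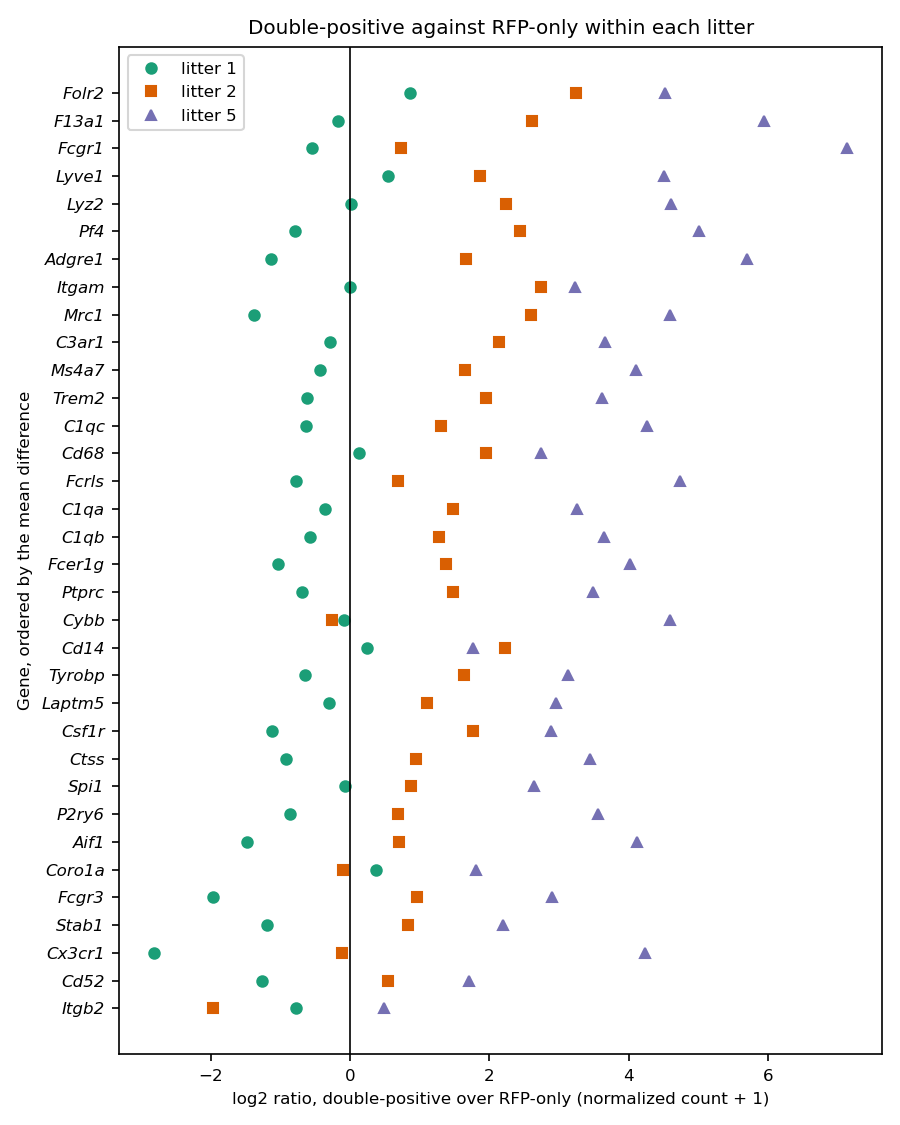
Log2 ratio of the double-positive to the RFP-only library within each litter, on normalized count + 1, for the 34 genes tested, ordered by their mean. Points of litter 1 lie mostly left of 0 and points of litter 5 all lie right of it.

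Summed over the 36 genes, GFP-only libraries had 2139, 3096 and 3741 normalized counts in litters 1, 2 and 5. Double-positive libraries had 7117, 16052 and 41987, and RFP-only libraries had 10226, 6047 and 3434. Double-positive over GFP-only was 3.33, 5.18 and 11.2 in the same order of litters, while RFP-only over GFP-only was 4.78, 1.95 and 0.918. The summed RFP-only level of litter 5 was thus below the GFP-only one. Taken singly, 8 of the 36 genes were below and 25 above in that litter, as were 47.5% and 52% of all genes tested. The 8 were Cybb, F13a1, C1qc, Laptm5, Lyz2, Fcgr3, Fcer1g and Stab1. By contrast, C1qb in that litter had 262 in RFP-only against 44.8 in GFP-only cells, and Csf1r had 339 against 31.2. Double-positive over RFP-only was 0.696, 2.65 and 12.2.

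The mix of the 36 genes, as each one's share of their summed level per kilobase of exon, is given here as means over 3 libraries. C1qb held 13.3% on average in double-positive, 13.9% in RFP-only and 1.32% in GFP-only cells. Pf4 held 10.8%, 6.84% and 0.850%, and Tyrobp held 8.47%, 9.46% and 2.99%. Laptm5 held 3.50% in double-positive and 4.28% in RFP-only cells, and Lyz2 held 14.9% in GFP-only cells, against 8.83% and 5.18%. Within each litter, 6 genes had a larger share in the double-positive than in the RFP-only library all 3 times (C3ar1, Lyz2, Ms4a7, Lyve1, Folr2 and F13a1). For Folr2 that share was 2.67, 3.65 and 1.97 times the RFP-only one in litters 1, 2 and 5, and for Lyz2 1.47, 1.69 and 1.98 times. Another 5 genes had the larger share in RFP-only cells all 3 times (Fcgr3, Cd52, Itgb2, Ctss and Stab1). For 22 genes the side changed between litters, and for 3 it could not be given because of a value of 0. These shares are a description without a test.

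The pattern over the 9 libraries was shared by most of the 36 genes. On standardized log2 values, Tyrobp, Pf4 and C1qa correlated with the mean of the other genes tested at r = 0.99, 0.98 and 0.97 over 9 libraries, and the lowest were F13a1 (0.65), Itgb2 (0.59) and Laptm5 (0.26). The libraries share litters and populations, so these are descriptions. Among all other genes tested, the one most like the set was Apoe, a lipid carrier gene of macrophages and other cells (r = 0.99), with 468, 645 and 1144 in GFP-only, 3571, 9053 and 17289.6 in double-positive and 4887, 3121 and 2285 in RFP-only cells. The next 14 were Ccl7, Cd300c2, Nckap1l, Pld4, Sema3g, Mndal, Clec4a2, Ms4a6d, Ctsc, Gm13652, Ccl3, Lilrb4a, Igsf6 and Ms4a6c, with r between 0.94 and 0.97.

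RNA of ligands of the macrophage receptors was found in the sorted populations as well, and bulk RNA does not show which cells held it. Csf1, the main ligand of Csf1r, had 533, 1001 and 319 in GFP-only, 761, 1091 and 1327 in double-positive and 1597, 1251 and 2418 in RFP-only cells. It rose in RFP-only cells (1.61 ± 0.41, adjusted p = 0.0175; 0.0815 without RFP-only litter 5), while in double-positive cells 0.90 ± 0.41 did not pass (adjusted p = 0.201). Il34, the other ligand, was too low to be tested, with at most 27.1. Of 12 genes of the CSF and KIT ligand and receptor families, 8 were tested, 1 rose in double-positive and 3 rose in RFP-only cells, and none fell. The others were Kitl, the stem cell factor gene (2.71 ± 0.42 in RFP-only cells, adjusted p = 0.00117), and its receptor gene Kit. Kit rose in both (2.31 ± 0.56, adjusted p = 0.0298, and 2.53 ± 0.56, adjusted p = 0.00893), the first not without double-positive litter 1, 2 or 5 (adjusted p 0.0575 to 0.112). That first call also ended with edgeR, without the mean-variance trend and in a fit of the 2 compared populations alone.

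Of 20 chemokine and chemokine receptor genes, 19 were tested, and 12 rose and 1 fell in double-positive cells, while 10 rose and 1 fell in RFP-only cells, both against GFP-only cells. The median log2 fold changes were 3.17 and 2.61, against 0.04 and 0.05 over all genes. Among the inflammatory chemokines, Ccl7, a monocyte attractant gene, had 9.92, 25.7 and 21.7 in GFP-only, 143, 610.4 and 1024 in double-positive and 201, 122 and 149.8 in RFP-only cells (4.58 ± 0.66, adjusted p = 0.00256, and 3.05 ± 0.66, adjusted p = 0.00794). Cxcl2, a neutrophil attractant gene, had 14.9, 7.35 and 78.7 in GFP-only, 411, 1414 and 1889 in double-positive and 232, 66.8 and 149.8 in RFP-only cells (5.56 ± 0.83, adjusted p = 0.00298, and 2.61 ± 0.83, adjusted p = 0.0473). The RFP-only call of Cxcl2 ended without GFP-only litter 1 or 2 or double-positive litter 2 or 5 or RFP-only litter 1 or 5 (adjusted p 0.0571 to 0.162). It also ended with edgeR, with quantile scaling, without the filter on the mean, without the mean-variance trend and in a fit of the 2 compared populations alone. Ccr1, a receptor of Ccl3 and Ccl7, had no read in GFP-only cells and was at least 145-fold higher in double-positive and at least 59.2-fold higher in RFP-only cells, against the floor of 3 reads over the group (adjusted p = 0.00101 and 0.000619).

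Stromal chemokines were ordered differently. Cxcl12, which retains blood progenitors, had 1708, 1888 and 789.6 in GFP-only, 5208, 10480.4 and 4547 in double-positive and 16954, 13124 and 12743 in RFP-only cells, and rose in both populations (2.20 ± 0.37, adjusted p = 0.00552, and 3.37 ± 0.37, adjusted p = 0.000142). Cxcl14 had 361, 642 and 288 in GFP-only, 2197, 2842 and 1295 in double-positive and 5299, 6954 and 5129.5 in RFP-only cells, and was the 1 gene of the list called between double-positive and RFP-only cells (-1.52 ± 0.35, adjusted p = 0.0428). That call ended without GFP-only litter 1 or double-positive litter 1 or 5 or RFP-only litter 1, 2 or 5 (adjusted p 0.0525 to 0.189). The Cxcl14 call also ended with edgeR, with TMM scaling, without the filter on the mean and without the mean-variance trend. Every RFP-only library had more of both Cxcl12 and Cxcl14 than any double-positive one, the reverse of the order of the macrophage genes in litters 2 and 5. Cx3cl1, the ligand of Cx3cr1, fell in both, from 1067, 941 and 636 in GFP-only cells to 233, 150.5 and 493 in double-positive and 171, 83.8 and 192 in RFP-only cells (-1.73 ± 0.47, adjusted p = 0.0447, and -2.61 ± 0.47, adjusted p = 0.00277). The first of these ended without GFP-only litter 1 or 2 or double-positive litter 1 or 2 or RFP-only litter 1 or 5 (adjusted p 0.0579 to 0.164). It also ended with edgeR, with TMM scaling, without the filter on the mean, without the mean-variance trend and in a fit of the 2 compared populations alone.

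**Figure D4:**
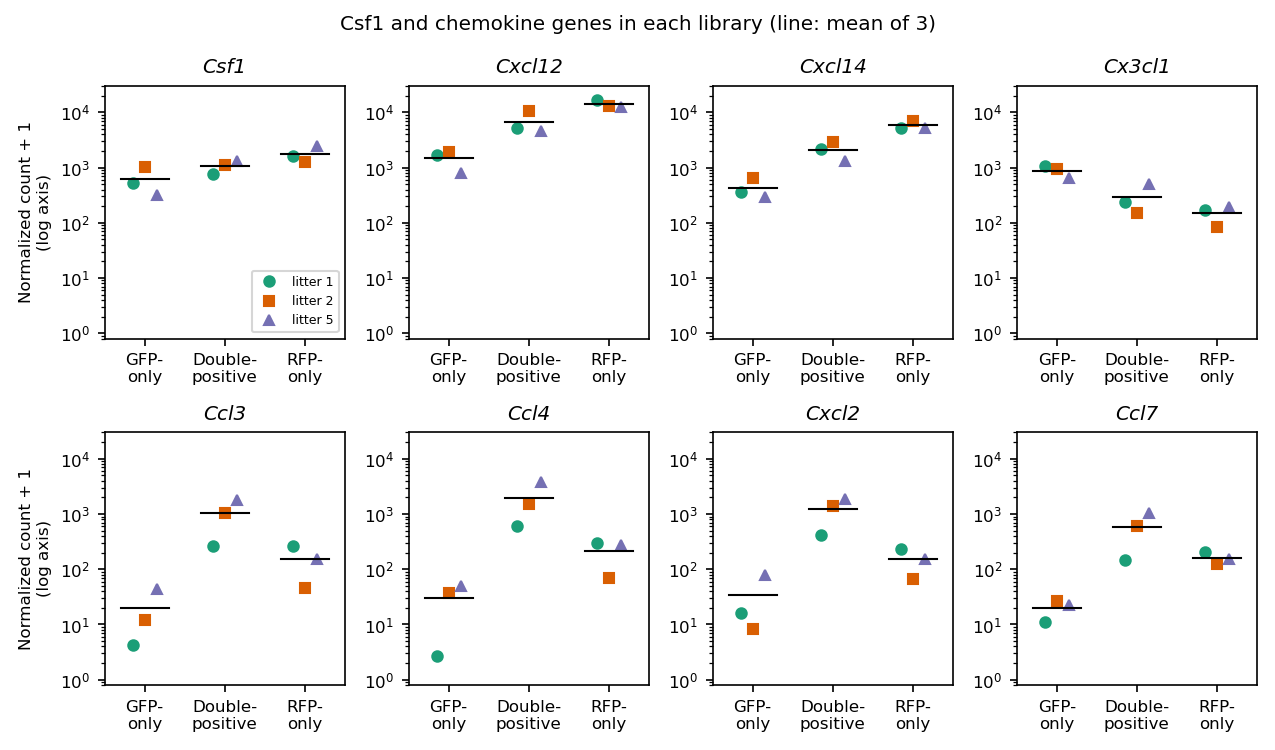
Normalized count plus 1 of Csf1 and 7 chemokine genes in each library (log axis), by population, with litters 1, 2 and 5 as separate symbols and the mean of 3 as a line. Cxcl12 and Cxcl14 are highest in RFP-only cells, Cx3cl1 is highest in GFP-only cells, and Ccl3, Ccl4, Cxcl2 and Ccl7 have their highest means in double-positive cells.

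Other gene lists of myeloid function did not follow the macrophage genes as a block. Of 16 further myeloid transcription factor genes, 15 were tested, none rose and 2 fell in double-positive cells, while 1 rose and 3 fell in RFP-only cells. Irf5, which drives inflammatory genes in macrophages, had 1547, 760.3 and 1383 in GFP-only, 149.9, 189 and 432 in double-positive and 217, 166 and 99.4 in RFP-only cells, the reverse of Spi1 (-2.34 ± 0.46, adjusted p = 0.0112, and -2.93 ± 0.46, adjusted p = 0.00121; 0.0528 for the first without double-positive litter 2). Batf3, a dendritic cell factor gene, fell in both as well (-2.21 ± 0.45, adjusted p = 0.0139, and -2.76 ± 0.45, adjusted p = 0.00163). Of 8 antigen presentation genes, 6 were tested, and 1 rose and 1 fell in double-positive cells, while 2 fell in RFP-only cells. Cd86, a costimulatory ligand gene, rose in double-positive cells (6.34 ± 1.41, adjusted p = 0.02; 0.0518 to 0.0829 without GFP-only litter 5 or double-positive litter 2 or 5). H2-DMa, a class II loading gene, had 968, 1628 and 4648 in GFP-only, 296, 357 and 379.8 in double-positive and 302, 388 and 239 in RFP-only cells and fell in both (-2.50 ± 0.47, adjusted p = 0.00951, and -2.67 ± 0.47, adjusted p = 0.00258).

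Of 20 complement genes beyond C1q, 15 were tested, and 2 rose in double-positive and 5 in RFP-only cells. C5ar1, the C5a receptor of phagocytes, rose in both (7.04 ± 1.15, adjusted p = 0.00452, and 4.67 ± 1.15, adjusted p = 0.0151; 0.0597 for the second without RFP-only litter 1, and 0.0846 with edgeR and 0.144 with DESeq2). Serping1, the C1 inhibitor, rose in RFP-only cells (3.15 ± 0.43, adjusted p = 0.000534). Of 12 efferocytosis and scavenging genes, 9 were tested, with 3 higher and 1 lower in double-positive and 3 higher and 2 lower in RFP-only cells. Mfge8, which bridges dying cells to phagocytes, was highest in GFP-only cells at 19581, 26014 and 40597 and fell in both (-1.52 ± 0.28, adjusted p = 0.00858, and -2.13 ± 0.28, adjusted p = 0.000436). The scavenger receptor gene Cd36 rose in both (3.03 ± 0.59, adjusted p = 0.0106, and 2.69 ± 0.59, adjusted p = 0.00795). Of 15 lysosomal enzyme genes that all cells use, none rose and 1 fell in double-positive cells and 2 fell in RFP-only cells. Of 8 microglia-type genes, 1 rose in double-positive cells, Siglech, which had no read in GFP-only cells and was at least 27.9-fold higher (adjusted p = 0.0317). That call ended with litter as a block (adjusted p = 0.0515) and without GFP-only litter 1 or 2 or double-positive litter 2 or 5 (adjusted p 0.0526 to 0.121). In RFP-only cells limma called none of the 8 (none at an unadjusted p under 0.05, and none by edgeR or DESeq2).

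Markers of other blood and vessel cells were counted in the same libraries, as were stress and cartilage genes, and their part in the results above was not tested. Of 14 neutrophil and monocyte markers, 3 were tested and limma, edgeR and DESeq2 each called none in any comparison, also at an unadjusted p under 0.05; Ly6g and Chil3 were at 0 in all libraries. Their summed level ran from 88.4 to 156 in GFP-only, 113 to 302 in double-positive and 148 to 343 in RFP-only cells. Of 14 lymphoid markers, Cd3e, Ms4a1 and Ncr1 were at 0 throughout and 3 were tested, of which 1 (Cd79b) rose in double-positive cells, and 1 (Cd79b) rose and 1 (Cd79a) fell in RFP-only cells. The double-positive call of Cd79b (adjusted p = 0.0418) ended with litter as a block (adjusted p = 0.0618), with edgeR (adjusted p = 0.122) and when any 1 library other than GFP-only litter 1 was left out (adjusted p 0.051 to 0.138). Its RFP-only call ended with edgeR (adjusted p = 0.0547) and without RFP-only litter 2 (adjusted p = 0.0538), and that of Cd79a without GFP-only litter 1 or 5 or RFP-only litter 2 or 5 (adjusted p 0.0533 to 0.0756). The lymphoid sums ran from 41.6 to 129, 46.1 to 182 and 79.8 to 111. Of 10 mast cell markers, Fcer1a and Mrgprb1 were at 0 throughout, 6 were tested and 1 rose, in RFP-only cells, with sums from 426 to 1035, 596 to 2587 and 906 to 2456. Of 12 osteoclast markers 9 were tested and limma called none against GFP-only cells (3 in double-positive and 5 in RFP-only cells at an unadjusted p under 0.05; edgeR 1 and 1, DESeq2 1 and 3). In limma 24.9% and 34.4% of all genes tested had an unadjusted p under 0.05 in these comparisons.

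Of 9 megakaryocyte and platelet markers 3 were tested, and 2 fell in RFP-only cells. Their sums were highest in GFP-only cells (319.5 to 489.8, against 112 to 236 and 79.8 to 166), whereas Pf4 was lowest there. Of 15 endothelial markers all were tested, 2 rose in double-positive and 8 in RFP-only cells, with sums of 1573 to 2774, 1992 to 6761 and 6227 to 8021. Of 13 erythroid markers, mainly globin genes, 12 were tested and 2 rose, in RFP-only cells, with sums of 5913 to 38596, 10176 to 78124 and 42289 to 138254. The erythroid, endothelial and neutrophil sums of double-positive cells were highest in litter 2, not in litter 5, where the macrophage sum was highest. The mast cell and lymphoid sums of double-positive cells were highest in litter 5. In RFP-only cells all 5 of these sums were highest in litter 2, while the macrophage sum was highest in litter 1. Summed levels of 11 dissociation stress genes, none of which was called in any comparison (1, 2 and 0 at an unadjusted p under 0.05; edgeR 0, 0 and 0; DESeq2 0, 1 and 0), were highest in litter 5 in each population. The 9 chondrocyte markers summed to 1194879 to 1724774 in GFP-only, 234760.5 to 683955 in double-positive and 3579 to 9779.7 in RFP-only cells, and were highest among double-positive libraries in that of litter 5.

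**Figure D5:**
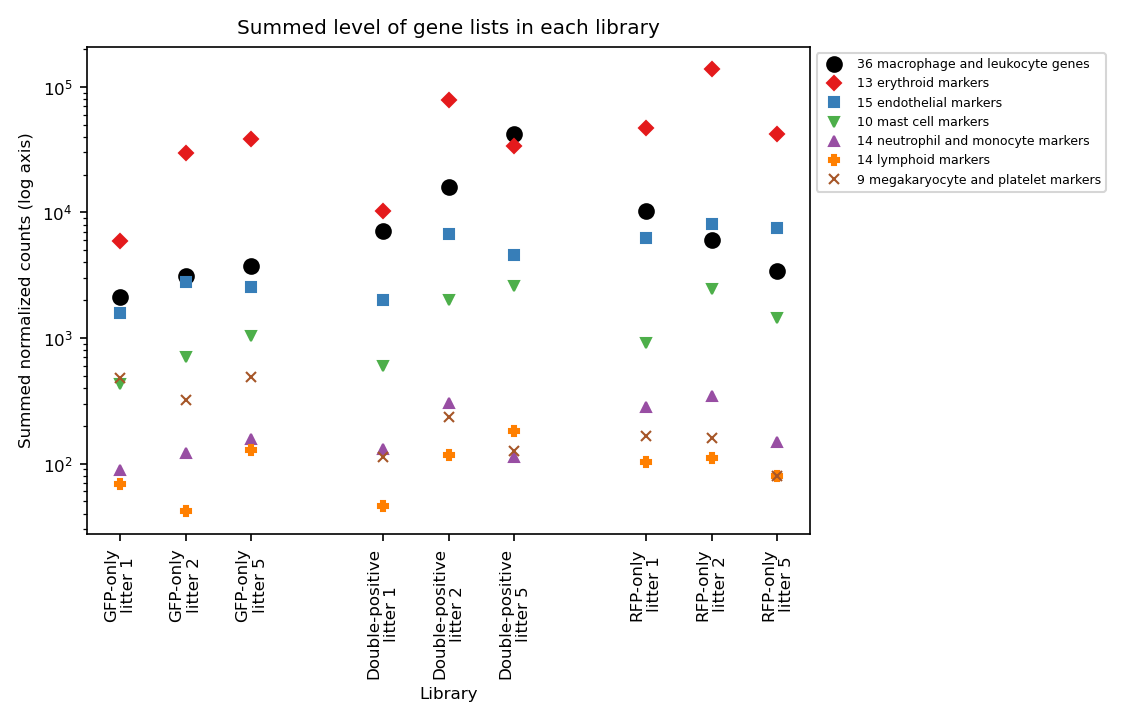
Summed normalized counts (log axis) of the 36 macrophage and leukocyte genes and of 6 marker lists in each library. The macrophage sum (black) runs from 7117 in litter 1 to 41987 in litter 5 among double-positive libraries and from 10226 down to 3434 among RFP-only ones, while the erythroid sum peaks in litter 2 in both.

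Calls in double-positive cells leaned on single libraries. Without double-positive litter 5, 14 of the 36 genes were called higher than in GFP-only cells instead of 23, when 570.0 of all genes were called higher instead of 936. Of the 23 calls, 13 held without any 1 library (C1qa, C1qb, C3ar1, Csf1r, Spi1, Tyrobp, Fcrls, Ctss, Ms4a7, P2ry6, Mrc1, Folr2 and Pf4). Of the 15 calls in RFP-only cells 11 did, namely the same genes except Mrc1 and Folr2. Leaving out a whole litter ended some of these calls too. In double-positive cells C1qb, Csf1r, Tyrobp, P2ry6, Mrc1, Folr2 and Pf4 lost theirs without litter 2 (adjusted p 0.0515 to 0.0756). In RFP-only cells C3ar1, Fcrls, Ms4a7, Tyrobp, P2ry6 and Pf4 did without litter 1. There C1qb, Tyrobp, P2ry6 and Pf4 did without litter 2 (adjusted p 0.0509 to 0.095 over both litters). In all, 14 genes were called higher than in GFP-only cells in both populations with red fluorescence, 9 in double-positive cells alone, 1 in RFP-only cells alone and 10 of those tested in neither. Since both comparisons use the GFP-only libraries, and the difference between them was tested above with no gene called, these counts do not show that the populations differ. In 28 of the 36 genes every double-positive library was above every GFP-only one, as in 14.3% of all genes tested. For RFP-only libraries this was so in 21 genes, against 20.9%.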

How the data were processed

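RNA of sorted knee cells was made into Nextera XT libraries, per the labels' protocols. The deposited values are normalized counts (signal), made on build mm10 with tools that include Salmon, STAR, FastQC and DESeq2, per the submitters' processing notes; versions, counting and strand settings are not given in the sources used here. Each library's smallest step gave back whole reads for 100% of values (tolerance 0.001 reads). Of 54532 genes, 54495 matched GENCODE M21 and 23956 had no read. The 36 genes and all lists were chosen with earlier results of these data known.

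Populations were compared with limma 3.58.1 (R 4.3.3, mean-variance trend, two-sided, all 9 libraries, Benjamini-Hochberg adjustment) on log2(normalized count + 1) for the 17764 genes with a mean of at least 10. The procedure was tested on simulated data. Alternatives were pseudocounts of 0.5 and 5, no filter or a mean of 50, TMM and quantile scaling, no trend, the 2 compared populations alone, litter as a block, edgeR 4.0.16 and DESeq2 1.42.0 on recovered reads, and leaving out each library or litter. Floors and folds against them use 3 reads over a group and cover counting error only. The labels give each library's litter, which pairs the libraries: deviations from the population mean correlated with a median r of 0.103 within litters (9 pairs, -0.0353 to 0.149) and -0.0409 between them (18 pairs).

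Every library's value is given for 16 of the genes set by name, for those whose direction differed from the majority and for others shown beside a result; from each other list up to 3 called genes with the smallest adjusted p in the majority direction and 1 in the other could be named per comparison, and Csf1 and Il34 always. Litters 3 and 4 were not analysed here. Some genes of the marker and complement lists, which count toward the list sizes, are not reported here.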

Additional observations from a re-analysis of the deposited data

How the results depend on the processing

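Direction and call of most results were the same under each alternative, least often when a whole litter was left out. Without litters 1, 2 and 5, 93, 81 and 105 of 137 results were the same, and 38, 55 and 21 lost their call. With litter as a replicate block 24 of the 36 genes were called higher in double-positive and 17 in RFP-only cells, each against GFP-only cells, and none between the populations with red fluorescence; 131 of 137 results were the same. Counts over all genes moved most. Higher calls in double-positive against GFP-only cells (936) became 423 in a fit of these 2 populations alone and 1544 with DESeq2, and lower calls (536) became 274 and 1236, and 336 without the trend. Between double-positive and RFP-only cells, higher calls (319) became 626 with DESeq2, and lower calls (187) became 282 with quantile scaling, 537 in the fit of 2 populations, 121 without the trend and 526 with DESeq2. Among the 36 genes DESeq2 called 3 higher in double-positive cells in that comparison, and the fit of 2 populations called 1 lower in RFP-only against GFP-only cells.

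Leaving out 1 library gave 14 to 24 of the 36 genes higher in double-positive and 11 to 16 in RFP-only cells, each against GFP-only cells, 0 to 1 lower in RFP-only cells and 0 to 1 higher between double-positive and RFP-only cells. Without litters 1, 2 and 5 the numbers higher were 18, 7 and 21 in double-positive, 6, 9 and 21 in RFP-only, and 2, 0 and 0 between these populations. Over all genes, leaving out 1 library gave 419 to 1003 higher and 218 to 626 lower calls in double-positive, 1274 to 2200 higher and 916 to 1587 lower calls in RFP-only cells, and 168 to 551 higher and 38 to 512 lower calls between them. Without litters 1 and 2 the higher calls were 291 and 177 in double-positive and 1004 and 1139 in RFP-only cells, and the lower calls were 86 and 52, and 641 and 672. Between these populations, without litters 1, 2 and 5, there were 102, 103 and 209 higher and 26, 28 and 84 lower calls. Leaving out a litter also removes samples from each population.

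Some differences near 0 changed sign. In RFP-only against GFP-only cells, Lyz2 was -0.26 with quantile scaling, -0.73 without litter 1 and between -0.36 and 0.50 without 1 library (-0.34 without RFP-only litter 1 and -0.07 without RFP-only litter 2). C1qc was -0.39 without litter 1, and Cd14 was -0.30 without litter 1 and between -0.074 and 1.01 without 1 library. Between double-positive and RFP-only cells, Cx3cr1 was -1.46 without litter 5 and between -0.58 and 1.48 without 1 library (-0.44 without RFP-only litter 5), and Itgb2 was between -1.63 and 0.062. Laptm5 in double-positive against GFP-only cells was -0.35 without litter 5 and between -0.45 and 0.71 without 1 library. The cause was not tested.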
